A study of Mus musculus with 22 samples.

Results

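The genes examined were those of the mouse major histocompatibility complex (MHC) and of antigen presentation: every row of the expression table whose symbol starts with H2-, and B2m, Tap1, Tap2, Tapbp, Cd74, Ciita, Psmb8, Psmb9 and Nlrc5. This gave 55 rows of 57010, of which 46 carried an H2- symbol. Polyadenylated RNA had been sequenced from isolated pancreatic islets of 22 male mice at 5.5 weeks of age, with 1 mouse per library. The genotypes were wild type (WT) and heterozygous (Het) for the S64F allele of MafA, a beta-cell transcription factor, and the labelled backgrounds were C57 and Mixed. The C57 background had 5 WT and 6 Het mice, and so had the Mixed background. The labels give no strains for the Mixed background and no MHC haplotype for any mouse, and mice are numbered here in the order of the deposit. Mixed mice were therefore also described one by one.

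Class I molecules, H2-K and H2-D in the mouse, display peptides from inside the cell together with B2m, after the immunoproteasome has cut them and the TAP transporter has carried them into the endoplasmic reticulum. Class II molecules, H2-A and H2-E, are made mainly by macrophages, dendritic cells and B cells, are chaperoned by Cd74 and loaded with help from H2-DM, and depend on the coactivator Ciita. The Q, T and M regions of the complex encode nonclassical class I genes, whose number and sequence vary between inbred strains. The MHC as a whole is among the most variable regions of the mouse genome.

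Values are TPM (transcript abundance scaled by transcript length and to a fixed total) as deposited, from which sequencing depth cannot be read. Each library had 14812 to 16133 genes at or above a TPM of 1, and no 2 libraries were identical. Mafa, whose allele defines the genotypes, lay between 93.8 and 152 TPM in C57 Het and between 362 and 571 TPM in C57 WT islets, and between 95.2 and 199 TPM in Mixed Het and between 440.0 and 775 TPM in Mixed WT islets. A gene was tested if it reached a TPM of 1 in at least 5 libraries. Where a symbol had more than 1 row, only the row with the highest mean was used. Of the 55 member rows 26 were tested, and 16749 genes in all. Another 8 rows, all of M region genes or H2-Pb, were listed at 0 in every library, and 21 were above 0 in some library but not tested. Of the latter, the lower row of H2-K2 reached the filter but was not the row kept, and the others failed the filter. H2-M2, H2-Q10, H2-T-ps and H2-T24 passed although fewer than 5 C57 libraries reached a TPM of 1, H2-M2 through Het mice of both backgrounds and the others mainly through Mixed mice. Genes that enter through the group where they are high had to differ. Differences are in log2(TPM + 1), a scale that compresses changes of low genes, and each adjusted p is from limma with Benjamini-Hochberg adjustment over all 16749 genes at a threshold of 0.05. The mice of a group are separate animals, and the islet preparation was bulk tissue, so that fewer cells of a type and less RNA per cell cannot be told apart.

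Per unit length, classical class I transcripts were the most abundant members. H2-K1 averaged 357 TPM over the 22 libraries and H2-D1 280 TPM, ahead of B2m at 157 TPM. The class II chaperone Cd74 followed at 121 TPM, then H2-Q2 at 98.9 TPM, Tapbp at 89.8 TPM, H2-Q4 at 56.2 TPM and H2-Eb1 at 53.9 TPM. Nlrc5, the coactivator of class I genes, lay between 0.256 and 0.987 TPM, and Ciita between 0.120 and 1.06 TPM. Both coactivators failed the filter.

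Between Het and WT islets of the C57 background, 3 of the 26 members passed the test, 1 higher and 2 lower in Het, where 38.0% of all genes tested passed (26.4% higher and 11.6% lower). The median difference was -0.10 over the members and 0.08 over all genes. The count was 5 without Mixed Het mouse 5, 7 (1 up, 6 down) with quantile normalization or median-of-ratios scaling, and 10 (4 higher and 6 lower) in a fit of the C57 libraries alone, whose spread is smaller. On the Mixed background 12 members passed, 9 higher and 3 lower in Mixed Het, beside 44.1% of all genes (30.7% higher and 13.5% lower), with medians of 0.28 and 0.10. Median-of-ratios scaling moved the median of all genes on the Mixed background from 0.10 to -0.01, and 11 of the 12 members passed under it, the exception being Psmb8. The interaction of genotype with background passed for 4 members, all class II genes with positive values, beside 7.36% of all genes (4.62% positive and 2.74% negative). That count was 2 without any 1 of C57 WT mouse 1, C57 Het mice 1, 2 and 4, Mixed WT mouse 2 and Mixed Het mice 2 and 5. Between backgrounds, 7 members differed among WT mice (3 higher and 4 lower in Mixed) beside 11.3% of all genes (6.3% higher and 4.99% lower), and 9 among Het mice (8 higher and 1 lower in Mixed) beside 20.5% (13.3% higher and 7.14% lower). The 3 higher in Mixed WT were H2-Q10, H2-T-ps and H2-T24, which passed the filter mainly through Mixed mice. H2-T-ps and H2-T24 were also among the 8 higher in Mixed Het. H2-M2, counted as higher in Het on both backgrounds and in Mixed Het over C57 Het, passed it through Het mice. The filter favoured these calls, so they are no support for a difference. Without Mixed WT mouse 1, or without Mixed WT mouse 2, the count between WT groups was 2. Members whose groups did not overlap numbered 7 in the C57 genotype comparison, 1 in the Mixed one, 7 between WT groups and 3 between Het groups, beside 21.0%, 23.6%, 6.13% and 9.85% of all genes.

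**Figure D1:**
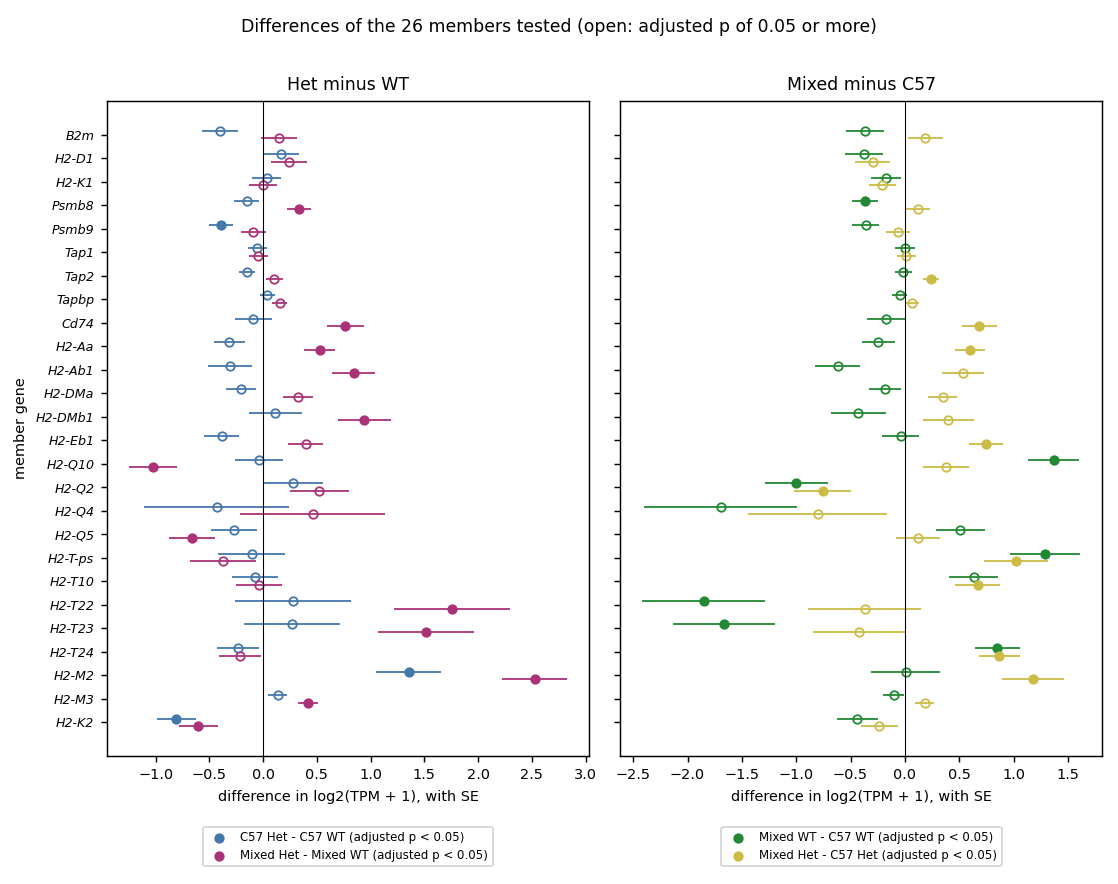
Differences in log2(TPM + 1) with their standard errors for the 26 members tested, Het minus WT within each background on the left and Mixed minus C57 within each genotype on the right. Filled points passed an adjusted p of 0.05; on the left the class II genes Cd74, H2-Aa, H2-Ab1 and H2-DMb1 are filled for Mixed only, and H2-M2 reaches 2.53 in Mixed and 1.35 in C57.

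Class II genes were higher in Mixed Het than in Mixed WT islets. Of the 6 class II members tested, Cd74, H2-Aa, H2-Ab1 and H2-DMb1 rose, and H2-Eb1 and H2-DMa did not pass. Of all genes, 30.7% were higher in Mixed Het. On the C57 background 0 of the 6 passed with limma, beside 38.0% of all genes. Of the 6, 2 had an unadjusted p under 0.05, and the differences of 5 of them were below 0. In a fit of the C57 libraries alone 3 of them, H2-Aa, H2-Ab1 and H2-Eb1, passed as lower in Het. The stretches before their start sites are shown because genes of this class share control elements there, known as the X2 box and the Y box. RefSeq (GRCm38.p6, the C57BL/6J assembly) gives the 250 bases before the start of H2-Eb1 as chr17:34305617-34305866 (plus strand), of H2-DMb1 as chr17:34152941-34153190 (plus strand) and of H2-Aa as chr17:34287824-34288073 (minus strand). Capitals mark the letters TGATGA and CCAAT on either strand (as TCATCA and ATTGG on the other).
H2-Eb1: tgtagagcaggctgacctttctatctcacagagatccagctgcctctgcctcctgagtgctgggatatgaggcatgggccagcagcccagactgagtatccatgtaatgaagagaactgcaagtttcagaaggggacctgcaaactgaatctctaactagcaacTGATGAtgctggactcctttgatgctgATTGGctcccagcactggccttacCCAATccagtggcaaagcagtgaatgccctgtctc
H2-DMb1: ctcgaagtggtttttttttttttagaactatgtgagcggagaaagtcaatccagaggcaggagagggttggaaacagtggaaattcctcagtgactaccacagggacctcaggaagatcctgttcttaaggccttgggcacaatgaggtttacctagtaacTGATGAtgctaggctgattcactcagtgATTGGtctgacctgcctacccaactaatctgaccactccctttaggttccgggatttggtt
H2-Aa: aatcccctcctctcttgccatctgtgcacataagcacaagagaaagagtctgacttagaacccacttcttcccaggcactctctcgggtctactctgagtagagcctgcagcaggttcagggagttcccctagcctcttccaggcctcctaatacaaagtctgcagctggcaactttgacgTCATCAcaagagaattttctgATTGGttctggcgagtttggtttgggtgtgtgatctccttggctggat
All of them hold a TGATGA and, closer to the start, an ATTGG. In H2-Eb1 these begin 86 and 59 bases before the start, in H2-DMb1 89 and 61 bases, and in H2-Aa the matches begin 69 and 48 bases before it, with TCATCA in place of TGATGA. Over the 300-base windows of the table (250 bases before to 50 after a start), CCAAT on either strand was in 35 of the 40 windows of the 37 member genes that matched by symbol, or 87.5%, and in 37.4% of all 32851 windows. TGATGA was in 14 of the 40 (35.0%) and in 12.4% of all. No TGATGA was in the windows of the class II genes H2-DMa, H2-DMb2, H2-Oa, H2-Ob and H2-Eb2, and a window of H2-DMa also lacked CCAAT. A match describes letters of the reference and is not a binding site. The sequences of the Mixed mice were not analysed here.

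Cd74 (ENSMUSG00000024610), the invariant chain, was at 85.8, 93.5, 132, 100.3 and 75.3 TPM in the 5 Mixed WT mice and at 147, 160.1, 210.5, 142, 249 and 109 TPM in the 6 Mixed Het mice. Mixed Het mouse 6 lay inside the WT range and the other 5 above it. The difference was 0.77 (SE 0.17, limma adjusted p = 0.00103). C57 values ran from 85.9 to 132 TPM in WT and from 87.7 to 118 TPM in Het and overlapped (-0.09, SE 0.17, limma adjusted p = 0.71).

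H2-Ab1 (ENSMUSG00000073421), the beta chain of H2-A, was at 19.5, 21.8, 36.7, 30.7 and 23.8 TPM in Mixed WT mice. In Mixed Het mice it was at 29.9, 55.3, 51.4, 40.5, 91.2 and 34.4 TPM, with mice 1 and 6 inside the WT range. It rose by 0.84 (SE 0.20, limma adjusted p = 0.00192), and its C57 difference was -0.31 (SE 0.20, adjusted p = 0.236, and 0.0198 in a fit of the 11 C57 libraries, where it passed as lower in Het). H2-Aa, the alpha chain, had means of 21.97 ± 3.79 TPM (SD, n = 5) in Mixed WT and 32.7 ± 9.78 TPM (SD, n = 6) in Mixed Het, a rise of 0.53 (SE 0.14, limma adjusted p = 0.00548). In C57 mice every Het value of H2-Aa, from 17.6 to 23.5 TPM, was below every WT value, from 23.8 to 29.2 TPM. That difference, -0.32 (SE 0.14), had a limma adjusted p of 0.0859 in the fit of all 22 libraries and 0.0198 in that fit.

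H2-Eb1, the beta chain of H2-E, was at 44.0, 52.9, 66.4, 57.8 and 39.2 TPM in Mixed WT and at 68.8, 63.4, 81.4, 60.7, 102 and 43.5 TPM in Mixed Het mice. These groups overlapped, and the difference of 0.40 (SE 0.16) missed the threshold with a limma adjusted p of 0.0521. Its C57 difference was -0.39 (SE 0.16, limma adjusted p = 0.0658), and it passed as lower in C57 Het in the fit of the C57 libraries alone (limma adjusted p = 0.0134). Its alpha-chain partner H2-Ea was listed at 0 in 20 libraries and at 0.0200 and 0.0423 TPM in Mixed WT mice 2 and 5. The 22 islet libraries thus held H2-Eb1 transcripts with next to none of H2-Ea.

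The peptide loader H2-DM followed unevenly. H2-DMb1 was at 1.02, 1.34, 2.84, 2.29 and 2.23 TPM in Mixed WT and at 2.33, 6.24, 5.04, 2.68, 11.04 and 3.28 TPM in Mixed Het mice, a rise of 0.94 (SE 0.25, limma adjusted p = 0.0039). For H2-DMb1 and H2-Ab1 the lowest Mixed mice of each genotype were WT 1 and 2 and Het 1, as for H2-Q4, H2-T22 and H2-T23 below. For Cd74, H2-Aa and H2-Eb1 they were WT mouse 5 and Het mouse 6. The part of single mice in these rises was not tested. H2-DMa differed by 0.33 (SE 0.14, limma adjusted p = 0.0648), from 4.95 ± 0.515 TPM (SD, n = 5) to 6.57 ± 1.53 TPM (SD, n = 6). H2-DMb1 and the near-copy H2-DMb2 share 13.7% of the 100-base stretches of the H2-DMb1 transcripts in GENCODE M21, so their split is uncertain. No such stretch of Cd74, H2-Aa, H2-Ab1 or H2-Eb1 occurs in another member.

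For 4 of the 6 class II genes the genotype difference was itself larger in Mixed than in C57 mice, beside 4.62% of all genes. The interaction was 1.15 (SE 0.28, limma adjusted p = 0.0207) for H2-Ab1 and 0.84 (SE 0.20, limma adjusted p = 0.018) for H2-Aa. It was 0.86 (SE 0.24, limma adjusted p = 0.0342) for Cd74 and 0.78 (SE 0.23, limma adjusted p = 0.042) for H2-Eb1. The calls of H2-Ab1 and H2-Aa held when any 1 mouse was left out, with adjusted p of at most 0.04 and 0.0343. Cd74 lost its call in 8 of those 22 fits, with adjusted p of up to 0.065, and H2-Eb1 in 14, with adjusted p of up to 0.0749. Without the filter both lost it, and H2-Eb1 also with median-of-ratios scaling and with sample weights. Each of the 8 mice (C57 WT 1, C57 Het 1, 2 and 4, Mixed WT 1 and 2, Mixed Het 2 and 5) left 2 class II interactions when removed. H2-DMb1 and H2-DMa had interactions of 0.83 and 0.53 that did not pass.

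**Figure D2:**
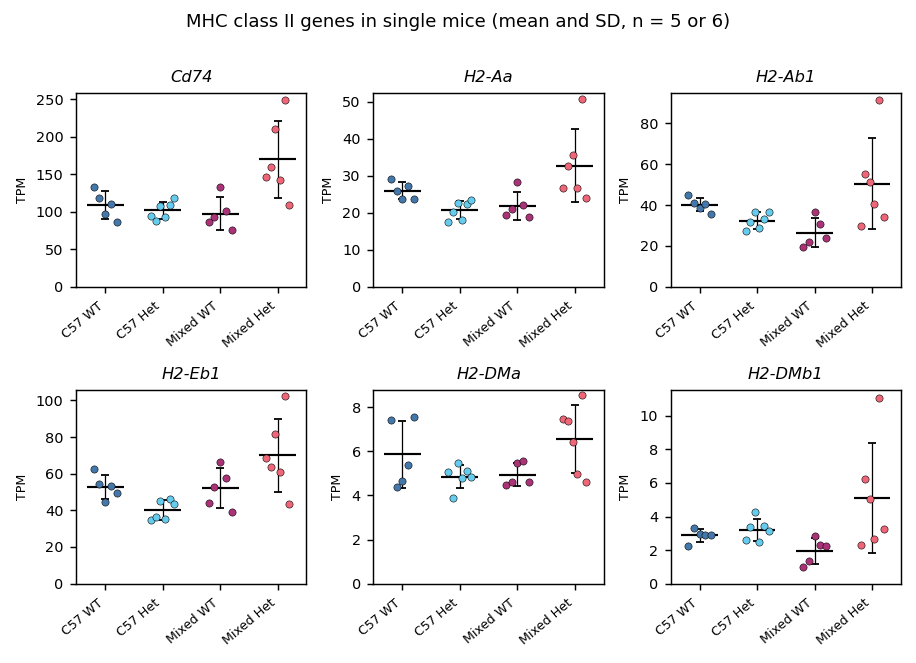
TPM of the 6 class II members tested, 1 point per mouse, with the group mean (line) and SD (bar) in the 4 groups (WT n = 5, Het n = 6). Mixed Het mouse 5 is the highest point for each gene, at 249 TPM for Cd74 and 91.2 TPM for H2-Ab1, and the C57 groups overlap for every gene but H2-Aa.

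Among Het mice, Cd74, H2-Aa and H2-Eb1 were also higher on the Mixed than on the C57 background, by 0.69, 0.60 and 0.75 (limma adjusted p = 0.00464, 0.00372 and 0.00179). Between the WT groups 0 of the 6 class II genes passed with limma, beside 11.3% of all genes, and H2-Ab1 alone had an unadjusted p under 0.05 (-0.62, limma adjusted p = 0.0602). Mixed Het mouse 5 had the highest value of all 22 libraries for each of the 6. Without it the rises in Mixed Het over Mixed WT were 0.64 for Cd74, 0.39 for H2-Aa, 0.65 for H2-Ab1 and 0.71 for H2-DMb1, with limma adjusted p between 0.00275 and 0.0111.

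Markers of macrophages differed in the same comparisons. Of 10 macrophage markers tested, 7 were higher in Mixed Het than in Mixed WT mice, among them Adgre1 (0.73), C1qc (0.88) and Lyz2 (1.29), and 4 were lower in C57 Het than in C57 WT. Of all genes, 30.7% were higher in Mixed Het and 11.6% lower in C57 Het. The summed level of the 12 listed macrophage markers was 140.0, 112, 147, 155 and 152 TPM in Mixed WT and 178, 207, 203, 211, 370.0 and 204 TPM in Mixed Het mice, with mouse 5 highest again. In C57 mice it ran from 228 to 290.0 TPM in WT and from 134 to 199 TPM in Het. C57 WT thus had higher macrophage sums than Mixed WT while its Cd74 values overlapped.

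Other leukocyte lists differed. The counts that follow stand beside 30.7% of all genes higher and 13.5% lower in Mixed Het, and 26.4% and 11.6% in C57 Het. Of 8 pan-leukocyte markers tested, 4 were higher and 1 lower in Mixed Het than in Mixed WT, with sums of 32.1 to 49.1 TPM in WT and 36.9 to 72.2 TPM in Het. The 8 dendritic-cell markers summed to between 2.93 and 4.21 TPM in Mixed WT and between 5.03 and 14.9 TPM in Mixed Het mice, with mouse 5 highest, and 2 of them could be tested. B-cell markers went the other way, from sums of 4.27 to 11.5 TPM in Mixed WT to 1.91 to 3.81 TPM in Mixed Het. T and NK cell markers summed to at most 2.52 TPM in any library, and Ncr1 was listed at 0 in every WT library. Of 6 mesenchymal markers tested, 5 were higher in Mixed Het, with sums of 31.4 to 62.8 TPM in Mixed WT and 58.0 to 367 TPM in Mixed Het. Of 7 endothelial markers 4 were lower in C57 Het, of 8 acinar markers 7 were higher in C57 Het and 2 in Mixed Het, and of 5 ductal markers tested 3 and 5 were higher. Of 8 beta-cell markers, 5 were lower and 0 higher in Mixed Het by limma, and 1 was lower and 1 higher in C57 Het. They summed to 401000 to 479000 TPM in Mixed WT and 251000 to 343000 TPM in Mixed Het mice, with no overlap, and to 370000 to 450000 TPM in C57 WT and 324000 to 379000 TPM in C57 Het mice. These markers make up a large share of all TPM and were lower in the Mixed Het mice, in which class II genes were higher. The part of these cells in the class II differences was not tested.

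Class II members below the filter were low throughout. Ciita lay between 0.120 and 0.212 TPM in Mixed WT and between 0.381 and 1.06 TPM in Mixed Het mice, and these groups did not overlap. A fit without the filter put its difference at 0.43 (SE 0.09, limma adjusted p = 0.00114), beside 0.00 in C57 mice. H2-DMb2 averaged 0.104 ± 0.0928 TPM (SD, n = 5) in WT mice of the C57 and 0.511 ± 0.0874 TPM (SD, n = 5) in those of the Mixed background, and in that fit it was higher in Mixed mice of both genotypes (0.46 and 0.59, limma adjusted p = 0.015 and 0.000593). H2-Oa reached at most 0.506 TPM, H2-Ob 0.339 TPM and H2-Eb2 0.0540 TPM.

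Of the 8 class I members tested, 1 passed in the C57 and 1 in the Mixed genotype comparison, beside 38.0% and 44.1% of all genes. Class I pathway genes outside the members are given with the other listed genes below. H2-K1 and H2-D1, the classical heavy chains, and Tap1 and Tapbp, parts of the peptide-loading machinery, passed limma's test in 0 of 5 comparisons, as did B2m. In the 25 tests of these 5 genes, 5 had an unadjusted p under 0.05. Of all genes, 7.36% to 44.1% passed in the 5 comparisons. H2-K1 averaged 373 ± 26.7 TPM (SD, n = 5) in WT and 381 ± 24.2 TPM (SD, n = 6) in Het islets of the C57 background, and 337 ± 76.1 TPM (SD, n = 5) and 335 ± 61.7 TPM (SD, n = 6) in those of the Mixed background. The SD of H2-K1 was larger in both Mixed groups, where it ran down to 234 TPM in WT mouse 5 and 233 TPM in Het mouse 1. H2-D1 likewise ran from 261 to 361 TPM over the 11 C57 mice and from 162 to 353 TPM over the 11 Mixed mice. Of the stretches of the H2-D1 transcripts, 4.64% occur in another gene, most of them in H2-Q1.

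B2m, the light chain, averaged 188 ± 55.6 TPM (SD, n = 5) in WT and 140 ± 28.9 TPM (SD, n = 6) in Het mice of the C57 background, a difference of -0.40 (SE 0.17, limma adjusted p = 0.0611). With median-of-ratios scaling and with quantile normalization it passed as lower in C57 Het (adjusted p = 0.0438 and 0.022). C57 WT mouse 5 was at 287 TPM, above the other C57 WT mice at 153 to 173 TPM. Leaving out 1 mouse at a time gave differences between -0.50 and -0.24.

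Both immunoproteasome subunits among the members had a call, in different comparisons. Psmb9 was lower in C57 Het than in C57 WT, at 4.72, 5.95, 4.34, 5.75, 5.52 and 5.31 TPM in Het and 8.74, 5.96, 6.71, 6.39 and 8.55 TPM in WT. The groups did not overlap, although the highest Het and the lowest WT mouse lay at 5.95 and 5.96 TPM, and the difference was -0.39 (SE 0.12, limma adjusted p = 0.0104). Psmb8 rose in Mixed Het over Mixed WT by 0.33 (SE 0.11, limma adjusted p = 0.0218), from 9.10 ± 0.327 TPM (SD, n = 5) to 11.9 ± 2.05 TPM (SD, n = 6). That call was lost with median-of-ratios scaling, with quantile normalization and without Mixed Het mouse 2 or 4. Psmb8 was lower in Mixed WT than in C57 WT with a limma adjusted p of 0.0484, which 7 other settings and 16 of 22 fits with 1 mouse left out put above 0.05. Tap2 differed between the Het groups, higher in Mixed by 0.24 (SE 0.07, limma adjusted p = 0.0227), at 37.8 TPM against 31.7 TPM on average, and lost that call without C57 Het mouse 3 or Mixed Het mouse 1.

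**Figure D3:**
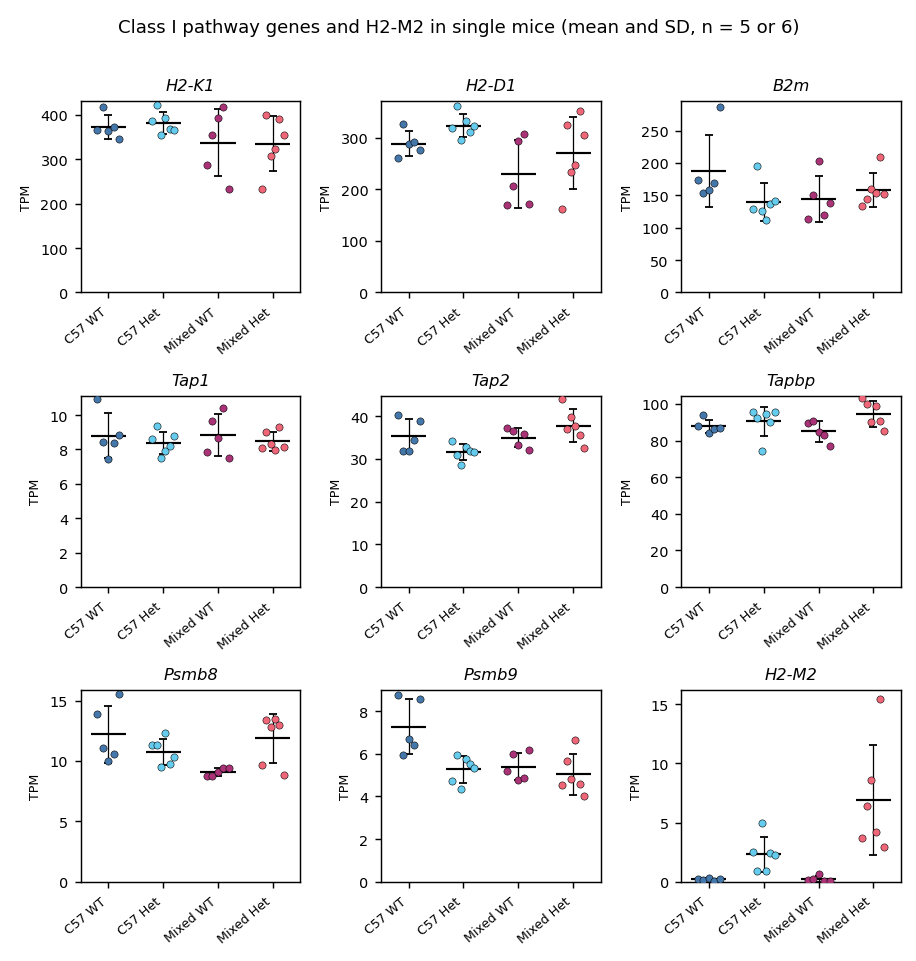
TPM of 8 class I pathway members and of H2-M2, 1 point per mouse, with group mean (line) and SD (bar) in the 4 groups (n = 5 or 6). H2-K1 lies between 345 and 422 TPM in C57 mice and spreads from 233 to 418 TPM in Mixed mice, and H2-M2 is below 1 TPM in every WT mouse.

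The TPM of members of the Q and T regions differed widely between single Mixed mice. These genes vary in sequence between strains, and some share stretches. Whether reads of Mixed mice were placed on the right gene was not tested, so their TPM may not follow transcript levels. Of the 26 members tested, 26.9% in Mixed WT and 38.5% in Mixed Het had an SD over 0.5 in log2(TPM + 1), where 8.52% and 6.97% of all genes did. In C57 WT the shares were 0.0% of members and 9.30% of all genes, and in C57 Het 3.85% and 4.61%. The Mixed shares include H2-Q10 and H2-T-ps, which passed the filter mainly through Mixed mice. Both are low in C57 mice, where the scale compresses their spread, so the filter favoured this contrast. The Mixed Het share also counts H2-M2, H2-Ab1 and H2-DMb1, which lie outside the Q and T regions. Of the Q and T region genes, 4 are shown by the 250 bases before their starts (GRCm38.p6). The stretch of H2-Q4 is at chr17:35379367-35379616 and that of H2-Q10 at chr17:35469839-35470088, on the plus strand. That of H2-T22 is at chr17:36042743-36042992 and that of H2-T23 at chr17:36032702-36032951, on the minus strand. Capitals mark the same motifs, and also GAANNGAAA, a spelling of the interferon response element, on either strand.
H2-Q4: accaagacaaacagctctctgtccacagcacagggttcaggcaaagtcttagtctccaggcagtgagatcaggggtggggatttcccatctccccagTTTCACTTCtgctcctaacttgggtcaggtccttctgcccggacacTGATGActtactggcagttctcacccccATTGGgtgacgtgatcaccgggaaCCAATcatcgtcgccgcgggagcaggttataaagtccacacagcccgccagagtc
H2-Q10: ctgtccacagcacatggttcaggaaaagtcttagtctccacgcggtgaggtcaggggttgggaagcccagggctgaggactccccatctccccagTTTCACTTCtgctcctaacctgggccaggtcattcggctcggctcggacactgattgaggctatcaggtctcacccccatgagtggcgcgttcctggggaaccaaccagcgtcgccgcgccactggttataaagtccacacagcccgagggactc
H2-T22: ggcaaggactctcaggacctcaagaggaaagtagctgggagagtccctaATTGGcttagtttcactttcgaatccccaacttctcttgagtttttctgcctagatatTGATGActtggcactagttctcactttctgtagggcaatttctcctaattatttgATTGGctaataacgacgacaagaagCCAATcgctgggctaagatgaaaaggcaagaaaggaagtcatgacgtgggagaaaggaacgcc
H2-T23: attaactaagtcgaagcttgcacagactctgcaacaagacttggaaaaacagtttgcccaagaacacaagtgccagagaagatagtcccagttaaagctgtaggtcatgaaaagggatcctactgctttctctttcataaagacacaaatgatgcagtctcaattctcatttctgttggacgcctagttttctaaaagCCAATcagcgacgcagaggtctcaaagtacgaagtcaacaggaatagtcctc
H2-Q4 holds GAANNGAAA 153 bases before its start, TGATGA at 107 bases, ATTGG at 79 bases and CCAAT at 55 bases. H2-Q10, of which C57 islets had at most 0.129 TPM, holds GAANNGAAA at 155 bases and neither CCAAT nor TGATGA. GAANNGAAA was in 9 of the 40 windows of members (22.5%) and in 7.52% of all windows. These letters are those of the reference strain, and no Mixed mouse was read at these positions here.

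H2-T22 (ENSMUSG00000056116), a nonclassical class I gene, was at 19.4 to 20.6 TPM in C57 WT (median 20.2) and at 22.1, 23.3, 24.6, 24.6, 25.4 and 27.4 TPM in C57 Het mice. Those groups did not overlap. Mixed WT mice 1 to 5 had 0.977, 1.35, 9.68, 9.21 and 12.4 TPM, all below the C57 range. Mixed Het mice 1 to 6 had 1.99, 37.1, 18.2, 16.7, 35.3 and 41.0 TPM, so that mice 2, 5 and 6 lay above every C57 mouse and mice 1, 3 and 4 below every C57 mouse. No Mixed mouse fell inside the C57 range of its genotype.

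H2-T23 (ENSMUSG00000067212), which encodes Qa-1, ordered the Mixed mice alike. It was at 25.6 to 40.5 TPM in the 11 C57 mice. Mixed WT mice 1 to 5 had 3.52, 3.73, 14.4, 13.6 and 14.6 TPM, and Mixed Het mice 1 to 6 had 4.37, 47.2, 20.7, 24.1, 58.0 and 46.1 TPM. The lowest values were again in WT mice 1 and 2 and Het mouse 1, and the highest in Het mice 2, 5 and 6. Of the stretches of the H2-T22 and H2-T23 transcripts, 9.38% and 3.93% occur in another gene.

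H2-T22 and H2-T23 were called in 2 comparisons each. The difference of Mixed WT from C57 WT was -1.85 (SE 0.57, limma adjusted p = 0.0374) for H2-T22 and -1.67 (SE 0.47, limma adjusted p = 0.0239) for H2-T23. Mixed Het were above Mixed WT by 1.76 (SE 0.54, limma adjusted p = 0.0119) and 1.52 (SE 0.45, limma adjusted p = 0.00907). The Mixed Het and Mixed WT mice overlapped, and neither genotype call held in a fit of the 11 Mixed libraries alone. C57 Het were above C57 WT by 0.28 and 0.27, which passed in a fit of the C57 libraries alone (limma adjusted p = 0.00634 and 0.0174) and not in the fit of all 22 (adjusted p = 0.721 and 0.668). Between WT groups both calls were lost without Mixed WT mouse 1 or 2 and without the filter. That of H2-T22 was also lost without C57 WT mouse 1, 3, 4 or 5 and in a fit of the WT libraries alone (limma adjusted p = 0.0562).

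H2-Q4 (ENSMUSG00000035929) was at 65.97 to 87.4 TPM in C57 WT and 49.0 to 69.4 TPM in C57 Het mice. It was at 4.39 and 5.14 TPM in Mixed WT mice 1 and 2 and at 3.56 TPM in Mixed Het mouse 1, the same mice that were lowest for H2-T22. The other 8 Mixed mice lay between 32.6 and 91.5 TPM. With this spread the mean difference between WT groups, -1.70 (SE 0.70), had a limma adjusted p of 0.126. In a fit of the C57 libraries alone H2-Q4 was lower in Het, with a difference of -0.43 (SE 0.10, limma adjusted p = 0.00571).

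H2-Q2 separated the backgrounds without overlap in both genotypes. C57 WT had 94.3 to 123 TPM and Mixed WT 33.7, 37.1, 64.5, 77.4 and 77.9 TPM, a difference of -0.998 (SE 0.29, limma adjusted p = 0.0283). C57 Het had 126 to 155 TPM and Mixed Het 28.8, 122, 70.6, 75.1, 105 and 122 TPM, a difference of -0.76 (SE 0.26, limma adjusted p = 0.0456). The call in Het mice was lost in 14 of 22 fits with 1 mouse left out, and that in WT mice without C57 WT mouse 3 or Mixed WT mouse 1 or 2. The lowest Mixed mice were again WT 1, WT 2 and Het 1.

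**Figure D4:**
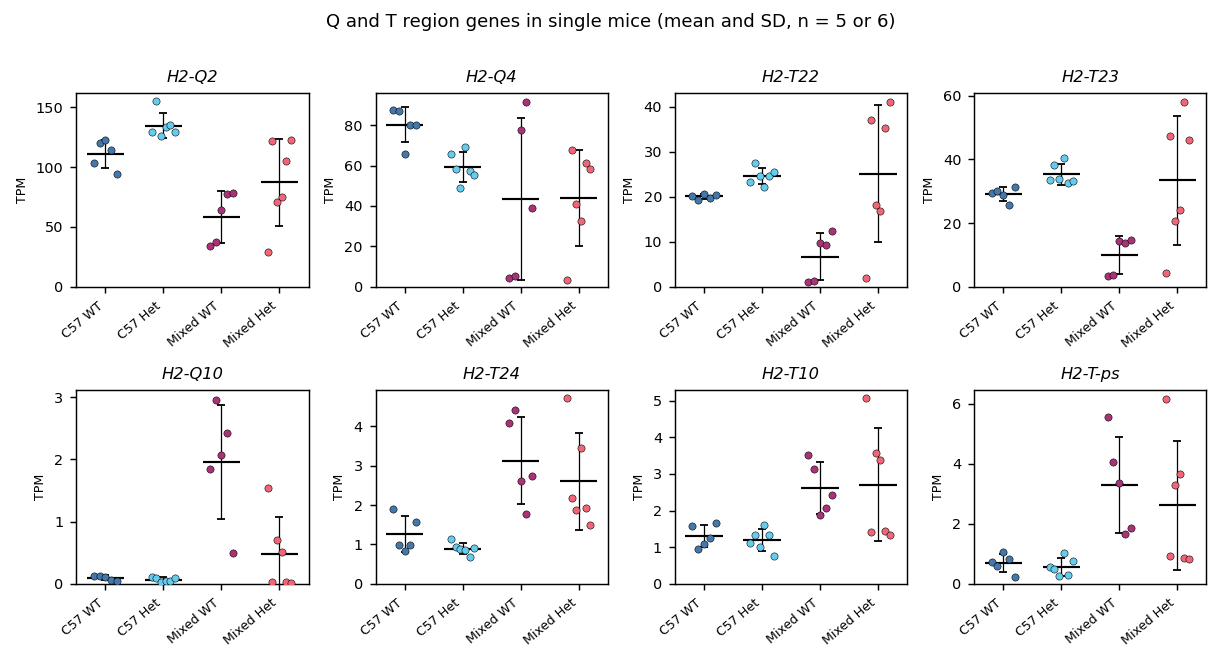
TPM of 8 genes of the Q and T regions, 1 point per mouse, with group mean (line) and SD (bar) in the 4 groups (n = 5 or 6). The Mixed mice spread, from 3.56 to 91.5 TPM for H2-Q4 and from 0.977 to 41.0 TPM for H2-T22.

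The TPM of other genes of these regions went the opposite way across the same mice, with the same limit on read placement. H2-Q10, which is known mainly from liver, was at 0.0452 to 0.129 TPM in C57 WT and at 1.85, 2.96, 2.07, 2.42 and 0.497 TPM in Mixed WT mice. It was higher in Mixed WT by 1.37 (SE 0.23, limma adjusted p = 0.000541), with no overlap. H2-Q10 passed the filter only through Mixed mice, so this call is no support for a difference. Mixed Het mice 1, 3 and 4 had 1.54, 0.695 and 0.507 TPM, while mice 2, 5 and 6 had 0.0337, 0.0289 and 0.0101 TPM. The C57 Het range was 0.0239 to 0.108 TPM, so mouse 6 lay below it and mice 2 and 5 within it. Mixed Het were lower than Mixed WT, with a difference of -1.03 (SE 0.22, limma adjusted p = 0.000866). Of the libraries that let H2-Q10 pass the filter, all but that of Mixed Het mouse 1 were of Mixed WT mice, which favoured this call too.

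H2-T-ps, a pseudogene by its name, was at 5.55, 4.06, 3.35, 1.65 and 1.86 TPM in Mixed WT mice and at 0.231 to 1.05 TPM in C57 WT mice, a difference of 1.29 (SE 0.32, limma adjusted p = 0.0124). In Mixed Het mice it was at 6.16, 0.928, 3.28, 3.65, 0.864 and 0.820 TPM, with mice 2, 5 and 6 inside the C57 Het range that ended at 1.01 TPM. H2-T10 was at 5.08, 3.58 and 3.39 TPM in Mixed Het mice 1, 3 and 4 and at 1.33 to 1.45 TPM in mice 2, 5 and 6, beside 0.745 to 1.59 TPM in C57 Het. It was higher in Mixed Het by 0.67 (SE 0.20, limma adjusted p = 0.0227), a call lost without C57 Het mouse 6 or Mixed Het mouse 1, 3 or 4 and without the filter. H2-T24 was higher in Mixed mice of both genotypes, by 0.85 in WT and 0.87 in Het (limma adjusted p = 0.00927 and 0.00237), and 10 of 11 Mixed mice lay above the C57 range of their genotype. H2-T-ps and H2-T24 passed the filter mainly through Mixed mice, so their calls as higher in Mixed mice are no support for a difference. H2-T10 shares 6.05% of its stretches with H2-T22 and H2-T24 shares 0.0% with any member.

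Among the members below the filter, H2-Bl and H2-Q1 followed the same split and others did not. H2-Bl was listed at 0 or up to 0.101 TPM in C57 mice, at 0.300 to 1.06 TPM in Mixed WT mice, at 0.581, 0.520 and 0.309 TPM in Mixed Het mice 1, 3 and 4, and at 0.0218, 0.0249 and 0.0 TPM in Mixed Het mice 2, 5 and 6. H2-Q1 was at most 0.0888 TPM in C57 mice and at 0.154 to 0.514 TPM in Mixed WT mice. Both were named after their values were seen, since neither passed the filter. Without the filter they were higher in Mixed WT than in C57 WT (0.61 and 0.42, limma adjusted p = 0.00803 and 0.000635). As both were picked by their values, these calls are no support for a difference. In that fit H2-Q3 was lower in Mixed WT (-0.30, limma adjusted p = 0.0315), and H2-Q6 and H2-Q7 did not pass. H2-Q7 was at 0.458, 0.867 and 0.446 TPM in Mixed Het mice 1, 3 and 4 and at 0.722, 0.501 and 0.205 TPM in mice 2, 5 and 6.

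H2-Q5 was at 2.05, 2.90, 3.52, 4.10 and 0.943 TPM in Mixed WT and at 0.707 to 1.43 TPM in Mixed Het mice, a difference of -0.66 (SE 0.21, limma adjusted p = 0.0164), which was lost without Mixed WT mouse 3 or 4. As 12.9% of its stretches occur in other genes, most of them in H2-Q7, its value is uncertain. Mixed WT mouse 5 lay apart from the other WT mice here and for H2-Q10.

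Across the complex, Mixed mice were set against the C57 mean of their genotype gene by gene in the order of the reference (GRCm38). Of 24 members tested on chromosome 17, 14 had at least 1 Mixed mouse more than 1 log2 unit away, and of 70 neighbouring genes tested, 14 did. The share over all genes was not counted. Among the 14 members were H2-Q10, H2-T-ps, H2-T24 and H2-M2, which passed the filter mainly through Mixed or Het mice. The filter thus favoured this count and the member counts above the C57 mean that follow. These counts are no support for a difference. Mixed WT mice 1 and 2 had 5 and 4 members more than 1 log2 unit below and 3 above each. Mixed Het mouse 1 had 4 below and 4 above, and Mixed Het mouse 6 had none in either direction. Mixed Het mouse 5 had 5 above, namely H2-DMb1, H2-Ab1, H2-Aa, H2-Eb1 and H2-M2. Among the neighbours, Tnf had 6 Mixed mice that far above the C57 mean, Hspa1b 6, Hspa1a 5 and C4b 4, a set picked after their values were seen. By limma, 4 of the 70 neighbours were higher and 11 lower in C57 Het, beside 26.4% and 11.6% of all genes, and 16 higher and 8 lower in Mixed Het, beside 30.7% and 13.5%. Between backgrounds, 11 neighbours were higher and 3 lower in Mixed WT than in C57 WT, beside 6.3% and 4.99% of all genes. In Mixed Het 21 were higher and 1 lower than in C57 Het, beside 13.3% and 7.14%. In the 70 neighbours the SD exceeded 0.5 in 7.14% in Mixed WT and 8.57% in Mixed Het, close to all genes. No haplotype was read in these mice, so its part in the differences was not tested.

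**Figure D5:**
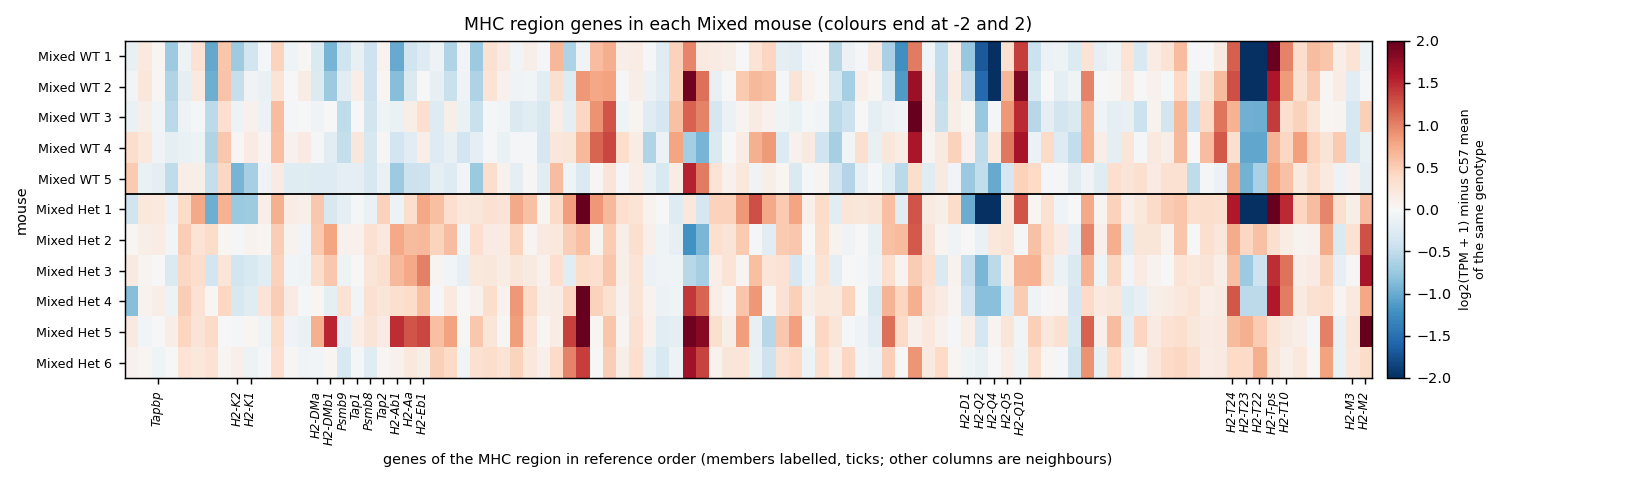
Each row is 1 of the 11 Mixed mice and each column 1 tested gene of the MHC region in reference order, coloured by its log2(TPM + 1) minus the C57 mean of the same genotype. Members are labelled; H2-Q4, H2-T22 and H2-T23 are deep blue in Mixed WT 1, Mixed WT 2 and Mixed Het 1, and the class II genes H2-Ab1 to H2-Eb1 are reddest in Mixed Het 5.

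The largest genotype difference among the members was that of H2-M2, a nonclassical class I gene of the M region. RefSeq gives the 250 bases before its start as chr17:37483555-37483804 (GRCm38.p6, minus strand), shown because it is the member with the largest difference, with the same motifs in capitals. No WT mouse reached a TPM of 1 for H2-M2, so it entered the test only through the Het mice, where it is high.
H2-M2: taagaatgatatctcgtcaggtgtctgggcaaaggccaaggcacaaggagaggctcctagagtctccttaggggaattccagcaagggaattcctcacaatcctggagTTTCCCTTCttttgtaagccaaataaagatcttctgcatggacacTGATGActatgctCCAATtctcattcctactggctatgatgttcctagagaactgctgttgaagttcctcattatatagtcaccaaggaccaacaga
GAANNGAAA begins 142 bases before the start, TGATGA 97 bases and CCAAT 84 bases before it. H2-M2 (ENSMUSG00000016283) was at 0.264, 0.108, 0.320, 0.0923 and 0.254 TPM in C57 WT and at 2.53, 0.891, 4.92, 0.904, 2.43 and 2.28 TPM in C57 Het mice, with no overlap. In Mixed WT it was at 0.128, 0.188, 0.677, 0.0920 and 0.0569 TPM and in Mixed Het at 3.72, 6.41, 8.59, 4.24, 15.4 and 2.96 TPM, again with no overlap.

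On the log2 scale H2-M2 rose by 1.35 (SE 0.30, limma adjusted p = 0.00156) in C57 Het and by 2.53 (SE 0.30, limma adjusted p = 1.15e-06) in Mixed Het. The ratio of the group means was 11.2 in C57 and 30.2 in Mixed. Between Het groups the Mixed mice were higher, by 1.18 (SE 0.29, limma adjusted p = 0.00596), while the interaction of 1.17 (SE 0.43) had a limma adjusted p of 0.0916. The genotype calls held in every fit with 1 mouse left out. As H2-M2 entered the test only through Het mice, its genotype calls and their stability are no support for the difference. No stretch of its transcripts occurs in another member.

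H2-M3, which presents formylated peptides, rose in Mixed Het by 0.42 (SE 0.09, limma adjusted p = 0.000908), from 25.1 ± 5.08 TPM (SD, n = 5) to 33.5 ± 2.27 TPM (SD, n = 6). Its C57 difference was 0.13 (SE 0.09, limma adjusted p = 0.261), and the interaction did not pass (limma adjusted p = 0.167). The other 12 M region rows stayed at or below 0.420 TPM in every library.

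On the row tested, H2-K2, a class I gene beside H2-K1, fell in Het on both backgrounds. It was at 8.78, 5.79, 5.71, 6.16 and 6.46 TPM in C57 WT and at 3.75, 2.14, 3.73, 4.59, 3.10 and 2.84 TPM in C57 Het mice. The groups did not overlap, and the difference was -0.81 (SE 0.18, limma adjusted p = 0.00154). Mixed WT and Mixed Het averaged 4.72 ± 1.57 TPM (SD, n = 5) and 2.71 ± 0.749 TPM (SD, n = 6) and overlapped, with a difference of -0.60 (SE 0.18, limma adjusted p = 0.00967). The table holds H2-K2 on 2 rows, and the row with the lower level did not pass the filter.

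Beyond the members, 30 of 33 listed genes that process, load or regulate antigen were tested. In C57 Het 14 were higher and 2 lower than in WT, and in Mixed Het 20 were higher and 3 lower. Of all genes, 26.4% were higher and 11.6% lower in C57 Het, and 30.7% and 13.5% in Mixed Het. The median difference was 0.13 in C57 and 0.46 in Mixed, beside 0.08 and 0.10 over all genes. The endosomal protease Lgmn went from 17.2 to 18.9 TPM in Mixed WT to 35.0 to 48.7 TPM in Mixed Het mice (1.12, SE 0.07, limma adjusted p = 2.32e-10) and rose in C57 Het by 0.46 (SE 0.07, limma adjusted p = 4.85e-05). The costimulatory receptor Cd40 rose by 0.87 in C57 and 1.10 in Mixed Het (limma adjusted p = 1.44e-05 and 3.54e-07). Ctsb, another endosomal protease, rose by 0.62 and 0.87, and Tapbpl, a class I peptide editor, by 0.59 and 0.79. Erap1, which trims class I peptides, rose by 0.60 and 0.52. Ctss, the protease that completes Cd74 cleavage, rose in Mixed Het (0.81, limma adjusted p = 0.00141), and its interaction of 1.03 passed (adjusted p = 0.0232).

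In the same list, Ifi30, a thiol reductase of the class II pathway, fell in both, with differences of -0.68 in C57 and -0.75 in Mixed Het (limma adjusted p = 0.0363 and 0.0194). Irf1, an interferon-responsive regulator of class I genes, was lower in Mixed Het, with a difference of -1.03 (SE 0.21, limma adjusted p = 0.000523), from 59.5 to 180.3 TPM in WT to 43.5 to 72.4 TPM in Het. Psmb10, an immunoproteasome subunit, and Psme1 and Psme2, subunits of its activator, had interactions of 0.81, 0.52 and 0.52 that passed. They were lower in Mixed WT than in C57 WT, with differences of -0.53, -0.49 and -0.37, and rose in Mixed Het over Mixed WT by 0.57, 0.54 and 0.46. Of the factors that bind class II promoters, Rfxap rose by 0.57 and 0.73 and Rfx5 fell in Mixed Het, with a difference of -0.36 (limma adjusted p = 0.0221). The interferon-stimulated list, with 18 of 20 genes tested, had 1 higher and 2 lower in C57 Het and 3 higher and 2 lower in Mixed Het, and 1 higher and 6 lower in Mixed WT than in C57 WT. The shares of all genes in these comparisons were 26.4% and 11.6%, 30.7% and 13.5%, and 6.3% and 4.99%.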

How the data were processed

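The authors deposited 1 table of TPM for 57010 Ensembl rows in 22 libraries, each summing to 1000000, per the file headers. Poly(A) selection is described per the labels' protocols, and STAR 2.7.10b, MultiQC 1.7 and mm39 are named, without their roles, per the submitters' processing notes. The counting tool and annotation are not given in the sources used here. TPM divides by a total, so a fall in very abundant transcripts raises other genes.

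Columns were matched to samples by library name, and groups were taken from the labelled genotype. Of 147 symbols on more than 1 row, the row with the highest mean was kept. With limma 3.58.1 (R 4.3.3), log2(TPM + 1) was fitted as 4 group means over all 22 libraries (eBayes with trend, a pseudocount of 1, a TPM of 1 in at least 5 libraries), with Benjamini-Hochberg adjustment over 16749 genes. Tested on simulated data of 16391 genes with 200 changed by 1 log2 unit, the fit recovered 90.5% in the C57 and 89.0% in the Mixed genotype comparison, and 3.72% and 7.77% of the calls made were of unchanged genes. The simulation gave each gene the same spread in all groups, changed only more abundant genes and planted no background difference or interaction. These rates therefore do not carry over to members whose spread differs between groups, and the interaction test was not checked.

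The members, lists and tests were chosen with earlier results of these data known. Named were all class I and class II members, other H2- genes with a call or among the 10 most abundant, and for other lists up to 5 genes each way per comparison with the largest differences. H2-Bl, H2-Q1 and further low members were named after their values were seen. The lists were other antigen processing genes, MHC region neighbours, interferon-stimulated genes and markers of leukocytes, macrophages, dendritic, B, T and NK, endothelial, mesenchymal, acinar, ductal and beta cells. Alternatives were a pseudocount of 0.1, no filter or one on a mean TPM of 5, quantile normalization or median-of-ratios scaling, fits of only the samples compared, eBayes without trend, sample weights, a required log2 difference of 1, every Ensembl row, and leaving out each mouse. Shared stretches were counted over 100-base windows of GENCODE M21 transcripts of 54 members. Upstream sequences came from the RefSeq promoter table (GRCm38.p6), matched by symbol, and motifs were searched on both strands.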

Additional observations from a re-analysis of the deposited data

Results flagged for a closer look

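The genotype difference depended on background for 4 class II genes by limma's interaction test, with values of 0.86 for Cd74, 0.84 for H2-Aa, 1.15 for H2-Ab1 and 0.78 for H2-Eb1 in log2(TPM + 1).

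In 8 of 104 sets of values (1 member in 1 group) 1 mouse lay far from the others by Dixon's test, where chance gives about 1 in 20. Low values were 3.56 TPM of H2-Q4 and 1.99 TPM of H2-T22 in Mixed Het mouse 1, 0.707 TPM of H2-Q5 in Mixed Het mouse 4 and 74.4 TPM of Tapbp in C57 Het mouse 3. High values were 287 TPM of B2m in C57 WT mouse 5, 8.78 TPM of H2-K2 in C57 WT mouse 1, 155 TPM of H2-Q2 in C57 Het mouse 2 and 0.677 TPM of H2-M2 in Mixed WT mouse 3. Mixed WT mice 1 and 2 were as low as Mixed Het mouse 1 for H2-Q4 and H2-T22. The test sets the outermost value against the next one, so it cannot flag 2 low mice that lie close together.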

How the results depend on the processing

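No called member difference changed sign in any setting tried. The C57 genotype comparison, with 3 members called, gave 1 with a mean TPM of at least 5, 7 with median-of-ratios scaling, 7 with quantile normalization, 10 with only the C57 libraries and 1 with a required log2 difference of 1. Its 0 class II calls became 2, 2 and 3 with the scalings and the C57 libraries alone. The Mixed genotype count of 12 became 4 with a required log2 difference of 1, and its 4 class II calls became 0. The interaction count of 4 became 7 with sample weights and 1 with a required log2 difference of 1, and its class II part became 2 without a filter and 1 with that change. Between WT groups, 7 became 4 with a mean TPM of at least 5 and 4 with a required log2 difference of 1. Between Het groups, 9 became 5 and 2 under these settings. The filter on the mean left 18 members to test, and the causes of the other shifts were not tested.

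Leaving out 1 mouse at a time gave 3 to 5 members in C57, 10 to 15 in Mixed, 2 to 6 for the interaction, 2 to 8 between WT groups and 7 to 11 between Het groups. For class II genes it gave 0 to 2 in C57, 4 to 6 in Mixed and 2 to 4 for the interaction. Over all members and comparisons, 73 single results lost and 38 gained a call in those fits while 2724 did neither, and in the other settings 46 lost, 44 gained and 1144 did neither.

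No paired analysis was possible because the labels carry no replicate numbers shared between groups. The unknown depth limits members near 1 TPM, whose differences log2(TPM + 1) compresses.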
